A study of Mus musculus with 9 samples.

Results

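The S100 genes encode small calcium-binding proteins. Members of the family were examined in 9 RNA-seq libraries of a mouse pancreatic ductal adenocarcinoma line and of clones derived from it. The 10 members are S100a1, S100a3, S100a4, S100a6, S100a10, S100a11, S100a13, S100a14, S100a16 and S100b, out of 54838 gene identifiers in the count table. They were taken as a family because S100a4 is lower in the knockout clone. The levels of the knockout clone are therefore what chose them; they are given below as a description, and the calls printed for them support nothing. The contrast between the unedited clone and the parental line was not used for that choice and is tested.

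PDA530 Met is a line grown from a liver metastasis that arose in a male KPC mouse, a genetic model of pancreatic cancer, on a mixed 129/SvJae and C57Bl/6 background. All 9 libraries share that origin and came from untreated cultures in normal growth. The knockout group is 1 single-cell clone (E4) edited with CRISPR/Cas9 in Zdhhc20, which encodes an enzyme that attaches palmitate to proteins. The control group, called the unedited clone, is 1 single-cell clone (C5) that received the same guide RNAs by nucleofection and yet kept Zdhhc20 expression without an edit. The parental group, called the parental line, is uncloned and had no nucleofection per the labels. Each group has 3 libraries described as biological replicates, so the replicates of a clone are not independent clones, and p-values measure the spread between cultures of these lines. The effect of the edit and any other difference between the clones cannot be told apart.

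S100 proteins carry a pair of EF-hand loops, a helix-loop-helix fold that holds calcium, and most work as dimers. When calcium rises in the cell they open a groove that binds target proteins such as annexins, cytoskeletal motors and p53. Some are also secreted and act on receptors such as RAGE, the product of Ager. In epithelial tumours several members are widely used as markers, and S100A4, also called metastasin or fibroblast-specific protein, is known for its association with cell motility and metastasis. Most of the genes sit in 1 block on mouse chromosome 3.

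By the GENCODE annotation of build GRCm38, 7 members lay within 113.1 kb of chromosome 3, from S100a1 to S100a6 (chr3:90511034-90624181). In order these are S100a1, S100a13, S100a14, S100a16, S100a3, S100a4 and S100a6, and all but S100a1 are read from the plus strand. S100a11 and S100a10 lay 2.9 Mb further along the same chromosome, 28.79 kb apart. S100b lay alone on chromosome 10 (chr10:76253853-76261159). S100a4 (ENSMUSG00000001020) occupied chr3:90603771-90606045. The exons of S100a4 and S100a3 share bases with a predicted gene, Gm42674, which held 0 counts in 8 libraries and 25 in the third parental library, so the division of reads among them is uncertain. The S100a3 exons also share bases with Gm23464, and no other member shared exon bases with an annotated gene. S100a11 has an annotated pseudogene, S100a11-ps, to which similar reads could have been assigned.

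Sequences upstream of 3 starts are shown because the values of these genes are set side by side below: a clustered gene that was low in the knockout clone, a distant one that was nearly level, and a head-to-head pair that was unequal. All are RefSeq sequence of GRCm38.p6, plus strand, written 5′ to 3′. The first 2 are the 250 bases before a RefSeq start (chr3:90603520-90603769 for S100a4 and chr3:93520246-93520495 for S100a11). The last is the 42 bases between the GENCODE 5′ ends of S100a1 and S100a13 (chr3:90514393-90514434). Capitals mark matches to 5 motifs searched by their letters on both strands, namely TATAAA (the box bound by TBP), TGANTCA (AP-1), GGGCGG (Sp1), CAGGTG (the E-box of ZEB and SNAI factors) and GGAATG (TEAD).
S100a4: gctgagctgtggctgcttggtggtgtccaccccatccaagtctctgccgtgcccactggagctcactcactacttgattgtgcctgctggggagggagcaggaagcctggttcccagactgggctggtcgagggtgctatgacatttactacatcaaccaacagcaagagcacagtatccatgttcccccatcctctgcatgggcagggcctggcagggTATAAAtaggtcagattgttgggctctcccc
S100a11: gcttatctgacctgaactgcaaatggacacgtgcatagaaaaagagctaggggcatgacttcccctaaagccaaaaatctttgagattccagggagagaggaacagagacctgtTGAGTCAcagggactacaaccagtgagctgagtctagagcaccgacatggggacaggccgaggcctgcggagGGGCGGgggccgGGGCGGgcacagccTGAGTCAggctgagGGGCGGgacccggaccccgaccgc
S100a1 to S100a13: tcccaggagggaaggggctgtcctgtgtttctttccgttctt

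The S100a4 stretch held 1 TATAAA, which begins 31 bases before the start, and no match to the other 4 motifs. It had 2 CG pairs, against a median of 6 over 32851 mouse promoter windows of the same length. The S100a11 stretch held 3 GGGCGG matches, 2 TGAGTCA matches and 11 CG pairs. Over all windows of the members in the table the number of CG pairs ran from 0 to 13, and it was not compared with their levels. Of all windows, 12.4% held TATAAA, 6.75% TGANTCA, 32.7% GGGCGG, 17.2% CAGGTG and 12.6% GGAATG. The motifs do not share letters in these stretches, and a match describes letters and not binding. The table of promoters held 8 of the 10 members.

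Depth was similar across the libraries, from 16525869 to 23192701 counts, and 13153 genes passed the filter on low counts, 9 of them members. Zdhhc20 was at 33.9 to 42.5 CPM (counts scaled to library size with TMM factors) in the knockout libraries, 85.8 to 123 in the control libraries and 75.3 to 90.7 in the parental libraries, so its order follows the labels although 2104 counts remained in the knockout clone. Epithelial markers fixed for this line (Krt7, Krt8, Krt18, Krt19, Epcam and Cdh1) summed to 4307 to 4436 CPM in the knockout libraries, 7000 to 9359 in the control libraries and 6686 to 8155 in the parental libraries. Epcam, a defining one, was at a mean of 0.610 CPM or less in every group. Marker lists of immune, endothelial, fibroblast and hepatocyte cells each summed to at most 4.0 CPM in any library. Control replicate 2 stood apart from the other control libraries in several members, and values without it are given where they change a result. In bulk RNA, fewer cells that express a gene and less RNA per cell cannot be told apart.

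S100a4, which binds non-muscle myosin heavy chain, reached 18.7, 20.4 and 20.1 CPM in the knockout libraries. The control libraries had 120, 67.2 and 165 CPM and the parental libraries 119, 129 and 145 CPM. The 3 knockout libraries lay within 2 CPM of each other and far below the other 6, and control replicate 2 was the lowest of those 6. The log2 fold change of the knockout clone was -2.58 (SE 0.27) against the unedited clone and -2.73 (SE 0.28) against the parental line. Both comparisons share the knockout libraries. Without control replicate 2 the first was -2.85, and without control replicate 3 it was -2.25. S100a4 carried 383, 366 and 345 counts in the knockout libraries, so these values are not limited by depth.

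S100a6, or calcyclin, binds CacyBP and annexins and was the member with the most counts in every group. Its CPM was 1496, 1647 and 1717 in the knockout libraries, 3345, 2546 and 3786 in the control libraries and 2426, 2775 and 3049 in the parental libraries. The knockout libraries again lay below all others. The log2 fold change was -0.99 (SE 0.14) against the unedited clone and -0.76 (SE 0.14) against the parental line.

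S100a16, a broadly expressed member, followed S100a4 more closely than any other member did. Its CPM was 25.1, 25.3 and 24.9 in the knockout libraries, 116, 65.9 and 153 in the control libraries and 84.9, 92.4 and 128 in the parental libraries. Its knockout libraries had an SD of 0.221 CPM and nearly coincided, whereas its control libraries spread over more than 2-fold. The log2 fold changes were -2.16 (SE 0.28) and -2.02 (SE 0.28) against the unedited clone and the parental line.

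S100a14, typical of epithelia, had the widest range of the members, 33.0-fold between its lowest and highest library. Its CPM was 1.76, 1.45 and 2.45 in the knockout libraries, 21.8, 13.9 and 47.7 in the control libraries and 6.65, 7.60 and 10.5 in the parental libraries. No library of one group overlapped another group, and the 3 control libraries spread more than 3-fold among themselves. The log2 fold change of the knockout clone was -3.88 (SE 0.47) against the unedited clone and -2.13 (SE 0.47) against the parental line. The first was -3.25 without control replicate 3. Only 26 to 42 counts lay behind each knockout value.

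S100a13 and S100a1 start 42 bases apart by GENCODE and are read in opposite directions. RefSeq places the start of S100a1 further inside the gene. S100A13 takes part in the release of FGF1 by a route that bypasses the classical secretory pathway. Its gene had 18.8, 27.3 and 19.6 CPM in the knockout libraries, 113, 78.0 and 114 in the control libraries and 58.4, 63.1 and 79.1 in the parental libraries. The knockout libraries were the lowest, and 1 control library fell just below the highest parental one. S100a1, best known for its role in heart muscle calcium handling, had 45.0, 49.8 and 45.4 CPM in the knockout libraries, 82.5, 60.9 and 91.4 in the control libraries and 64.1, 66.0 and 91.3 in the parental libraries. Its knockout libraries were also below the other 6, by a smaller margin. The log2 fold changes of the knockout clone were -2.22 (SE 0.20) and -1.61 (SE 0.20) for S100a13, and -0.75 (SE 0.17) and -0.66 (SE 0.17) for S100a1, against the unedited clone and the parental line in turn.

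The ratio of S100a13 to S100a1, each per kb of exon, separated the 3 groups. It was 0.406, 0.532 and 0.420 in the knockout libraries, 1.33, 1.24 and 1.21 in the control libraries and 0.884, 0.928 and 0.841 in the parental libraries. S100a13 was the higher of the pair in the unedited clone and the lower in the other groups. Between the unedited clone and the parental line the means were 1.26 ± 0.06 and 0.884 ± 0.04 (SD, n = 3), an exact two-sided permutation p of 0.1, the smallest that 3 against 3 libraries can give. Adjusted over the 3 ratios computed, none of which was in the plan, it was 0.15. The ratio of S100a6 to S100a4 was 34.2 to 36.4 in the knockout libraries, 9.77 to 16.2 in the control libraries and 8.73 to 9.22 in the parental libraries (control against parental, exact two-sided permutation p 0.1, adjusted 0.15). The ratio of S100a11 to S100a6 was 1.67 to 1.95, 0.807 to 1.16 and 1.09 to 1.28 in the same order, and its exact two-sided permutation p for control against parental was 0.3 (adjusted 0.3). The last 2 ratios change with the length of S100a6: with the longest transcripts the ratio of S100a11 to S100a6 was 0.955 to 1.12, 0.462 to 0.664 and 0.622 to 0.735, so which gene was higher depends on that choice, and the mean ratio of S100a6 to S100a4 was 52.2, 18.8 and 13.4. The mean ratio of S100a13 to S100a1 was then 0.442, 1.23 and 0.863.

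S100a3, a gene best known from the hair cuticle, was detected with 32 to 111 counts per library. Its CPM was 2.73, 2.73 and 1.87 in the knockout libraries, 4.84, 3.75 and 3.15 in the control libraries and 4.77, 3.89 and 2.29 in the parental libraries. Parental replicate 3 lay among the knockout libraries, and the log2 fold changes were -0.68 (SE 0.30) against the unedited clone and -0.58 (SE 0.30) against the parental line.

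The distant pair on chromosome 3 was closer to level. S100a10 encodes p11, which has lost calcium binding and joins a pair of annexin A2 molecules at the plasma membrane. Its CPM was 343, 397 and 349 in the knockout libraries, 537, 517 and 428 in the control libraries and 420, 443 and 452 in the parental libraries. The knockout libraries were below the rest, with log2 fold changes of -0.44 (SE 0.10) and -0.27 (SE 0.10) against the unedited clone and the parental line. S100a11, which binds annexin A1, had 1089, 1051 and 1070 CPM in the knockout libraries, 1090, 1103 and 1142 in the control libraries and 1164, 1127 and 1289 in the parental libraries. It had the narrowest range of the 9 members, 1.23-fold from lowest to highest library, and the highest knockout library was level with the lowest control library to within 2 CPM. Its log2 fold changes were -0.06 (SE 0.07) and -0.16 (SE 0.07).

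S100b, typical of glia and pigment cells, held 4 counts in all 9 libraries together, with 0 counts in 5 of them. It did not pass the filter, and no fold is given.

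**Figure D1:**
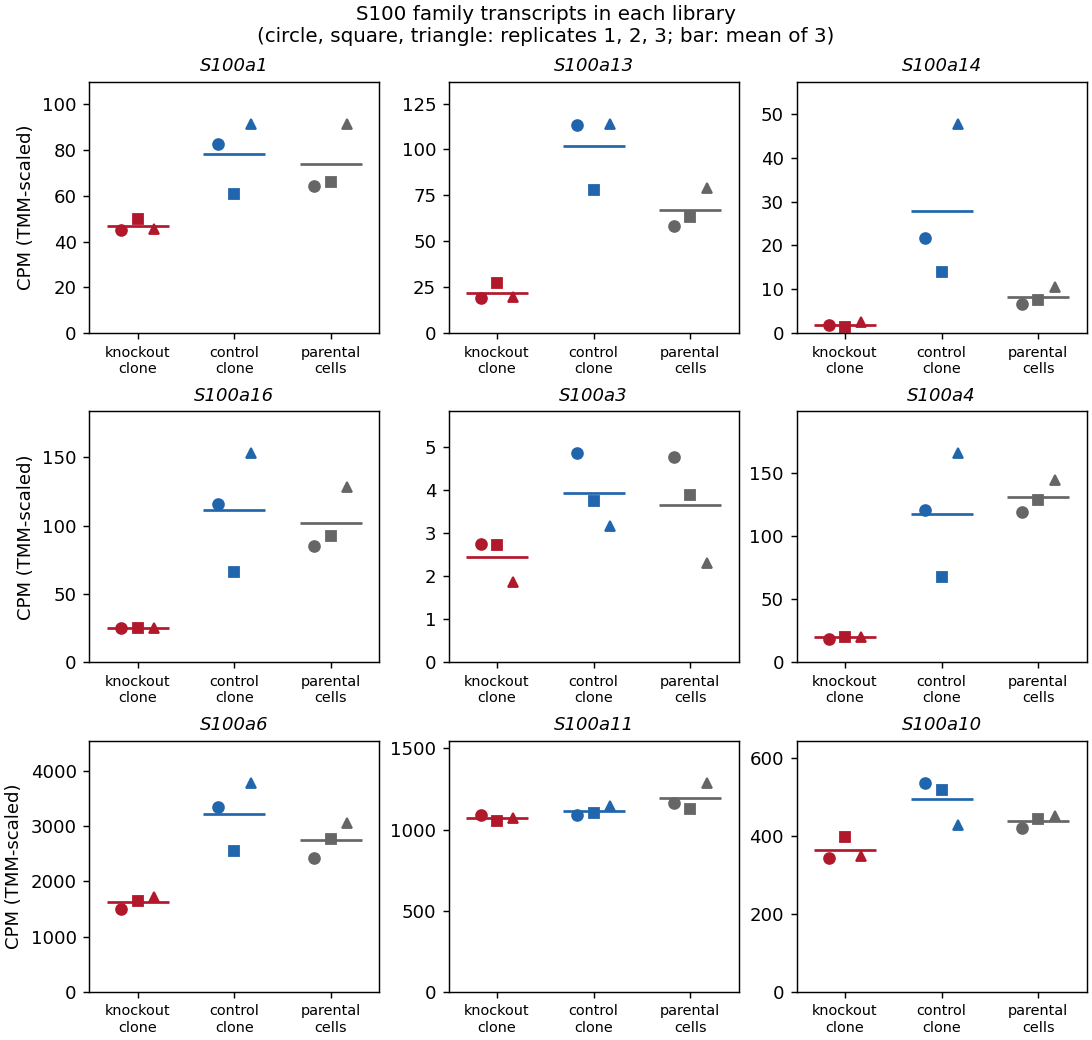
TMM-scaled CPM of the 9 tested S100 genes in each library, with 1 panel per gene in chromosome order, each axis from 0 and bars at the mean of 3 libraries. The knockout libraries of S100a4 lie at 18.7 to 20.4 CPM against 67.2 to 165 in the other 6, whereas those of S100a11 lie at 1051 to 1089 against 1090 to 1289.

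Of the 9 tested members, 7 were called lower and 0 higher when the knockout clone was set against the unedited clone, in a comparison that called 42.9% of all 13153 genes, 24.2% lower and 18.7% higher. Against the parental line, 6 were called lower and 0 higher, where 31.4% of all genes were called, 18.3% lower and 13.1% higher. A call is an adjusted p under 0.05 in edgeR's quasi-likelihood test. At an unadjusted p under 0.05 the counts were 8 lower and 0 higher in both comparisons. DESeq2 called 7 lower in each and limma voom 7 and 5, with 0 higher. All 3 knockout libraries lay below the 3 control libraries for 9 of the 9 (27.6% of all tested genes), below the 3 parental libraries for 8 (31.7%), and below all 6 for the same 8 (18.6%). The members were chosen on these contrasts, so nothing is read from these counts. Median log2 fold changes of the 9 were -0.99 and -0.76, beside medians over all tested genes of -0.02 and -0.01. Of the 6 epithelial markers named above, 5 were called lower and Epcam higher against the unedited clone, and 4 lower and Epcam higher against the parental line. Epcam held 34 counts in the knockout group and 9 and 11 in the others, and passed the filter only through the knockout libraries, so its calls are not read. Krt19, a ductal keratin, was at -3.12 (SE 0.32) and -2.73 (SE 0.31). The part of these markers' change in the members' levels was not tested.

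**Figure D2:**
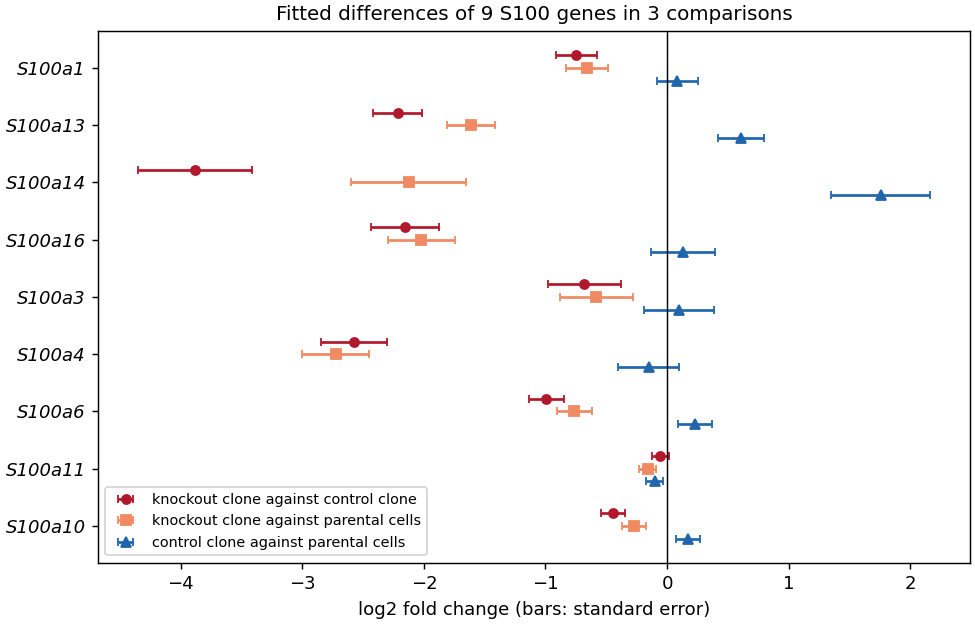
Fitted log2 fold changes of the 9 tested members (points) with their standard errors (bars) in the 3 comparisons. The 2 comparisons of the knockout clone lie at or below 0 for each gene, from -3.88 for S100a14 to -0.06 for S100a11, while unedited clone against parental line lies near 0 except for S100a14 (1.76) and S100a13 (0.61).

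Control clone against parental line asks how far an unedited clone differs from the line it came from. S100a14 and S100a13 were called higher in the unedited clone, and 0 members were called lower by edgeR. Over all genes, 21.4% were called in this comparison, 10.4% higher and 11% lower. The same 2 higher and 0 lower were found at an unadjusted p under 0.05, by DESeq2 and by limma voom. The median log2 fold change of the 9 members was 0.13, against 0.01 over all genes. Of the 6 epithelial markers Krt7 was called higher in the unedited clone (1.09, SE 0.12, edgeR adjusted p 0.000446) and the other 5 were not called, and their part in the results of the members was not tested.

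S100a14 was 3.38-fold higher in the unedited clone, at a mean of 27.8 ± 17.7 CPM (SD, n = 3) against 8.24 ± 1.99 CPM in the parental line. The log2 fold change was 1.76 (SE 0.41, edgeR adjusted p 0.0148), and all 3 control libraries were above all 3 parental libraries, as for 18.2% of all tested genes (19.2% lay below). It was 1.13 without control replicate 3. Leaving out parental replicate 1 or 2 lost the call (adjusted p 0.0697 and 0.0626), and it held in 15 of 17 alternatives. S100a13 was 1.52-fold higher, at 102 ± 20.5 CPM against 66.9 ± 10.9 CPM (SD, n = 3). Its log2 fold change was 0.61 (SE 0.19, edgeR adjusted p 0.0476), with overlapping libraries. This call was close to the threshold and held in 5 of 17 alternatives, over which the adjusted p ranged from 0.00708 to 0.177. It was lost without control replicates 1 or 3, without any 1 of the parental replicates, and without knockout replicates 1 or 3, which share the fit.

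The other 7 tested members were not called between the unedited clone and the parental line. S100a4 had a log2 fold change of -0.15 (SE 0.25, adjusted p 0.709), which became 0.13 without control replicate 2 (adjusted p 0.502). S100a6 was at 0.23 (SE 0.14, adjusted p 0.279) and was called higher without control replicate 2, at 0.37 (adjusted p 0.0254). S100a10 was at 0.17 (SE 0.10, adjusted p 0.241) and was called higher without control replicate 3, at 0.27 (adjusted p 0.0270). S100a11 was at -0.10 (SE 0.07, adjusted p 0.331). S100a1, S100a16 and S100a3 had log2 fold changes of 0.09, 0.13 and 0.10 with adjusted p of 0.755, 0.755 and 0.840. Each of these 3 changed sign when 1 library was left out, and a p that misses the threshold does not show equal levels.

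Control replicate 2 was the lowest of the 3 control libraries for 6 of the 9 tested members, as it was for 39.5% of all tested genes. It held 0.401 times the mean of the other control libraries for S100a14, 0.470 times for S100a4 and 0.489 times for S100a16. For S100a1, S100a6 and S100a13 it held 0.700, 0.714 and 0.688 times. For S100a3, S100a10 and S100a11 it was the middle library, at 0.938, 1.07 and 0.988 times. The 6 low members all belong to the cluster, and its neighbour S100a7a went the other way in the same library, as described below.

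Levels of different members were compared per kb of exon (CPM per kb). In the parental line the order was S100a11 at 2335 ± 166, S100a6 at 2012 ± 228, S100a10 at 362 ± 13.6, S100a4 at 224 ± 22.5, S100a1 at 106 ± 21.9, S100a13 at 93.5 ± 15.2, S100a16 at 63.0 ± 14.4, S100a14 at 4.77 ± 1.15 and S100a3 at 0.645 ± 0.222 (mean ± SD, n = 3). The ranges over the 3 libraries overlapped between the first and second place and between S100a1 and S100a13. Within each parental library, though, S100a11 was above S100a6 (ratio 1.09 to 1.28). In the same way S100a1 was above S100a13 (ratio of S100a13 to S100a1 0.841 to 0.928). Lengths matter here. With the longest transcript in place of the union of exons, an alternative that was extended to all groups after the data were seen, S100a6 came first at 3512 CPM per kb in the parental line and at 4120 in the unedited clone, with no overlap with S100a11, and the parental libraries of S100a16 overlapped those of S100a13. In the unedited clone S100a6 was at 2360 ± 460 and S100a11 at 2176 ± 52.9, again overlapping, and S100a4, S100a13, S100a1 and S100a16 formed a chain of overlapping neighbours from 201 ± 84.2 to 69.1 ± 27.1. In the knockout clone S100a11, at 2094 ± 37.4, was apart from S100a6, at 1185 ± 82.8, only with the union of exons. With the longest transcript S100a6 was at 2069 ± 145 there, and the libraries overlapped. There S100a1, at 67.3 ± 3.86, stood above S100a4, at 33.8 ± 1.55, whose libraries overlapped those of S100a13 at 30.6 ± 6.57.

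Summed over the 10 members, the knockout libraries held 3649 to 3783 CPM per kb, the control libraries 4809 to 6055 and the parental libraries 4833 to 5701. S100a11 made up 56.2% ± 1.93 of that sum in the knockout clone, 40.0% ± 4.28 in the unedited clone and 45.0% ± 1.91 in the parental line (SD, n = 3). S100a6 made up 31.8% ± 1.64, 42.7% ± 3.61 and 38.6% ± 1.73 in the same order, and S100a4 made up 0.906% ± 0.0264, 3.59% ± 1.15 and 4.30% ± 0.0825. The mean share of S100a10 was 6.97% to 8.04% in the 3 groups. The shares within a group depend on the lengths: with the longest transcripts S100a11 made up 43.1%, 28.8% and 33.2% and S100a6 42.6%, 53.7% and 49.8% in the knockout clone, the unedited clone and the parental line. The knockout libraries then summed to 4697 to 4956 CPM per kb and the others to 6484 or more.

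**Figure D3:**
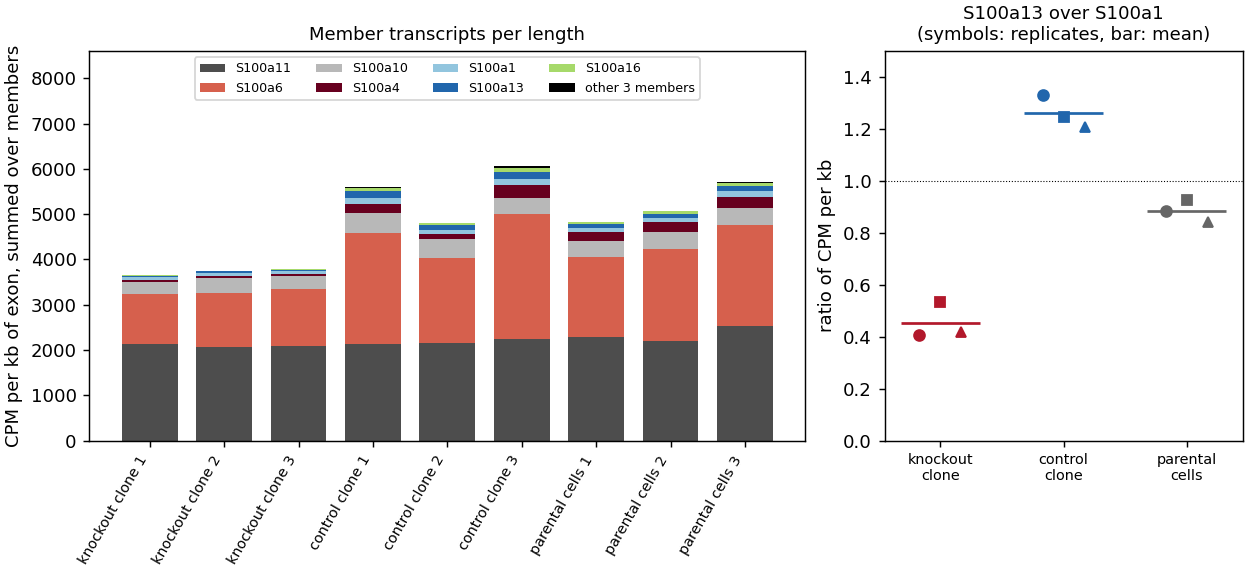
Left, CPM per kb of exon summed over the members in each library, stacked by gene; right, the ratio of S100a13 to S100a1 per kb in each library, with bars at the mean of 3. The summed level is 3649 to 3783 in the knockout libraries and at least 4809 in the others with little change in S100a11, and the ratio is below 0.55 in the knockout clone and above 1 in the unedited clone.

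Position along chromosome 3 was then set beside these values. The 7 clustered members had log2 fold changes from -3.88 to -0.68 against the unedited clone (median -2.16) and from -2.73 to -0.58 against the parental line (median -1.61). The 5 tested genes before S100a1, namely Ints3, Npr1, Ilf2, Snapin and Chtop, lay between -0.27 and 0.44 in the first comparison, with Snapin called lower and 0 higher. In the second they lay between -0.44 and 1.19, with Snapin called lower and Npr1 higher. Chtop, the nearest of them to S100a1, was at 0.13 (SE 0.09) and 0.01 (SE 0.09). Over the 690 tested genes of chromosome 3 the medians were -0.03 and 0.02, with 38.7% and 30.9% called. On the far side of S100a6 the nearest tested gene was S100a7a, and the next 4 started 1612 to 1674 kb from the start of S100a4. Of these 5 genes, 3 were called lower against the unedited clone and 1 against the parental line, with log2 fold changes from -5.31 to 1.48 and from -4.82 to 0.84. They include the near-identical Sprr2a1 and Sprr2a2, whose counts are uncertain. The -5.31 is that of Sprr2a1, at a mean of 0.0185 CPM in the knockout clone, 0.957 in the unedited clone and 0.235 in the parental line. The 1.48 is that of Gm37752, at 1.06 CPM in the knockout clone and 0.395 in the unedited clone, and it was not called. Both genes lie near the floor, so the call of Sprr2a1 and these ends of the range are not read. Between the unedited clone and the parental line, 1 of the 10 flanking genes was called, S100a7a, where 18.6% of the tested genes of chromosome 3 were called.

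**Figure D4:**
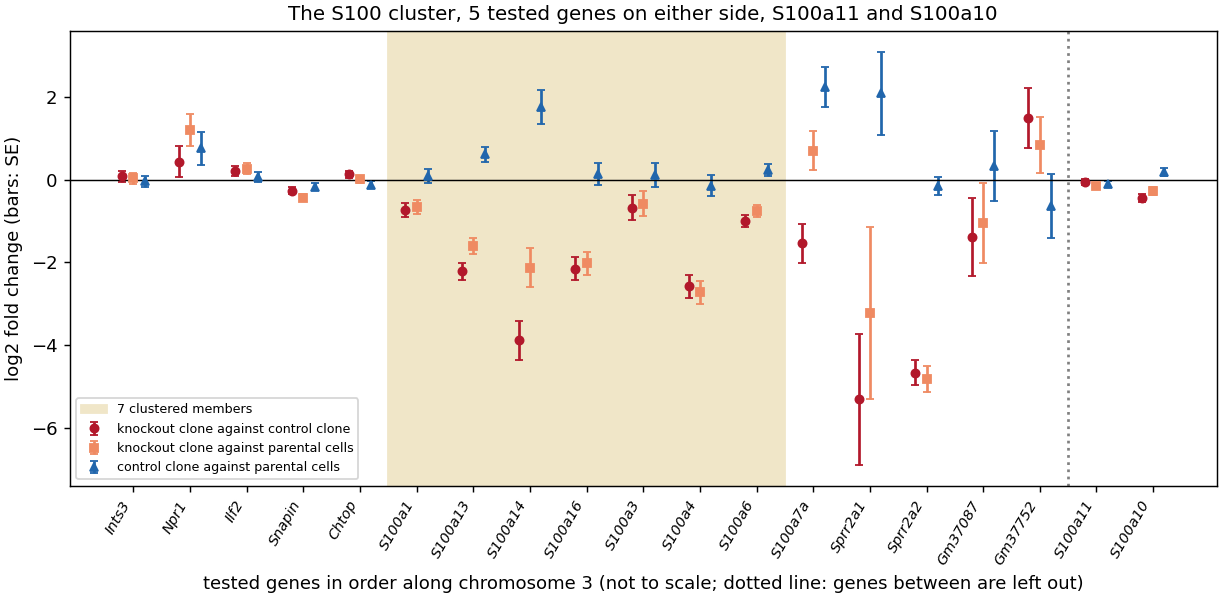
Log2 fold changes (points) and standard errors (bars) of tested genes in their order along chromosome 3, with the 7 clustered members shaded and S100a11 and S100a10 at the right. Both knockout comparisons are below 0 throughout the shaded block, between -3.88 and -0.58, and between -0.44 and 1.19 at the 5 genes to its left.

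S100a7a, a psoriasin-like gene of inflamed skin next to the cluster, was the only one of the other S100 and S100-fused genes with enough counts to be tested. Its CPM was 47.2, 68.5 and 50.6 in the knockout libraries, 80.8, 317 and 87.9 in the control libraries and 40.2, 31.3 and 31.2 in the parental libraries. The control libraries were highest, and control replicate 2 was more than 3-fold above the other control libraries. S100a7a was higher in the unedited clone than in the parental line (log2 fold change 2.24, SE 0.48, edgeR adjusted p 0.0109), and by 1.3 without control replicate 2. Against the knockout clone its direction differed by reference, with the knockout clone lower than the unedited clone (-1.54, SE 0.47) and at 0.69 (SE 0.47) against the parental line. Without control replicate 2 the first was -0.60 and the second, still 0.69, was called higher. The call against the unedited clone held in 13 of 17 alternatives and was lost without knockout replicates 1 or 3, with limma voom and with only those groups fitted. The calprotectin genes S100a8 and S100a9, abundant in neutrophils, held at most 29 and 2 counts in any library. S100a5, S100g, S100z and the 7 S100-fused genes listed, such as Flg, Tchh and Crnn, did not reach the filter either. One listed symbol, S100a7l2, had no match in the annotation.

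Genes that encode partners of S100 proteins were counted from lists. Of 12 annexins, all tested, 3 were called between the unedited clone and the parental line, 25% against 21.4% of all genes. Without control replicate 2 there were 7, while the calls over all genes rose from 2814 to 3930. Anxa3 and Anxa5 were higher in the unedited clone, by 0.39 (SE 0.09, edgeR adjusted p 0.0136) and 0.33 (SE 0.06, adjusted p 0.00752), and Anxa1 was lower, by a log2 fold change of -0.51 (SE 0.11, adjusted p 0.0109). Against the unedited clone the knockout clone had 8 annexins called lower and 0 higher, 66.7% against 42.9% of all genes. Against the parental line 7 were called lower and 1 higher, 66.7% against 31.4%. Those 8 calls became 4 without knockout replicate 1 or parental replicate 3, and 5 without knockout replicates 2 or 3 or parental replicates 1 or 2. The annexin medians were -0.68 and -0.47, beside -0.02 and -0.01 over all genes.

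Anxa2, the membrane partner of S100a10, had 914, 1048 and 958 CPM in the knockout libraries, 1995, 1821 and 2591 in the control libraries and 2097, 2189 and 2343 in the parental libraries. Its log2 fold changes were -1.13 (SE 0.13) against the unedited clone and -1.18 (SE 0.13) against the parental line, larger in size than the -0.44 and -0.27 of S100a10 itself. Between the unedited clone and the parental line Anxa2 was at -0.05 (SE 0.12, edgeR adjusted p 0.812).

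Of 7 receptors of secreted S100 proteins, 5 were tested. Ager, the gene of RAGE, held 16, 16 and 18 counts in the control libraries, 5, 4 and 8 in the parental libraries and 5, 1 and 3 in the knockout libraries. It passed the filter on low counts only through the control libraries, where it is highest. The 1 receptor called between the unedited clone and the parental line was Ager (log2 fold change 1.44, SE 0.45), 20% of those tested against 21.4% of all genes. For that reason Ager is given as a value and not as a result. Without the filter its edgeR adjusted p was 0.109, and the call held in 4 of 16 alternatives (adjusted p 0.0393 to 0.171). For the knockout clone 3 receptors were called lower against the unedited clone, 60% of those tested against 42.9% of all genes. Against the parental line 2 were called lower, 40% against 31.4%, with 0 higher in either comparison. The 3 include Ager, whose call is not read for the same reason. Counted in either direction, the calls against the unedited clone were 5 without control replicate 2. Those against the parental line were 1 without knockout replicates 1 or 2 or parental replicate 3.

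Of 24 intracellular targets, 19 were tested, and 3 were called between the unedited clone and the parental line, all lower in the unedited clone (15.8% against 21.4% of all genes). That count was 1 without control replicate 1 or parental replicates 1 or 2. Myh10, which encodes a non-muscle myosin heavy chain, was at 8.72 ± 1.99 CPM in the unedited clone and 28.0 ± 3.80 CPM in the parental line (SD, n = 3), a log2 fold change of -1.69 (SE 0.15, edgeR adjusted p 0.000187). It was at 100.4 CPM in the knockout clone, 3.53 (SE 0.16) and 1.84 (SE 0.15) above the other groups on the log2 scale. Myh9, the myosin best known as a partner of S100A4, was at 0.33 (SE 0.12) and 0.30 (SE 0.12) in the knockout clone, and at -0.03 (SE 0.12, adjusted p 0.873) between the unedited clone and the parental line. Cacybp, the partner of S100a6, was at 0.17 (SE 0.10) in both knockout comparisons and at -0.0017 (SE 0.10, adjusted p 0.992) in the remaining one. The co-chaperone genes Stip1 and Sugt1 were lower in the unedited clone than in the parental line, by log2 fold changes of -0.35 (adjusted p 0.0266) and -0.24 (adjusted p 0.0428). Fgf1, the cargo of S100A13, was picked out after its values were seen. It was at a mean of 6.85 CPM in the knockout clone, 72.3 in the unedited clone and 79.3 in the parental line, with log2 fold changes of -3.40 (SE 0.41) and -3.54 (SE 0.42) for the knockout clone. In all, the knockout clone had 8 targets called higher and 2 called lower against the unedited clone, 52.6% against 42.9% of all genes. Against the parental line it had 4 and 1, 26.3% against 31.4%. The 10 calls became 5, 6 and 4 without knockout replicates 1, 2 and 3, and the 5 became 9 without control replicate 2 or 3.

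Other calcium-binding genes with EF hands were counted for comparison. Of 26 listed, 20 were tested, and 3 were called between the unedited clone and the parental line (15% against 21.4% of all genes), with Pef1 higher (0.34, edgeR adjusted p 0.0191) and Rcn2 and Capns1 lower (-0.40, adjusted p 0.00532, and -0.26, adjusted p 0.0462). In the knockout clone 2 were called higher and 7 lower than in the unedited clone, 45% against 42.9% of all genes. Against the parental line 1 was called higher and 4 lower, 25% against 31.4%. Their medians were -0.008 and -0.006. With 1 library left out, 1 (without any 1 parental replicate) to 6 (without control replicate 3; 5 without control replicate 2) were called between the unedited clone and the parental line. Against the parental line the knockout clone had 10 called without control replicate 2 or 3.

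Likeness to S100a4 was measured as Pearson's r of log2 CPM over the 9 libraries, among 10019 genes averaging 5 CPM or more. The 5 most alike were Col6a2 (0.997), Sult1c2 (0.997), Gsta4 (0.996), Rab11a (0.996) and Vps26b (0.995), which lie on chromosomes 10, 17 and 9. Col6a2 was at 9.41 ± 0.747 CPM in the knockout clone, 54.0 ± 18.5 in the unedited clone and 66.0 ± 7.47 in the parental line (SD, n = 3), and Sult1c2 held 0 counts in the knockout clone. Among the members, S100a16 was the most alike (0.988, place 36), followed by S100a6 (0.948), S100a13 (0.929), S100a1 (0.921), S100a14 (0.864), S100a10 (0.700) and S100a11 (0.668). The libraries fall into 3 groups, so r mainly reflects differences between groups, and it is given as a description.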

How the data were processed

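The authors deposited RSEM estimated counts per gene, 1 column per library, all whole numbers, so rounding changed none. The submitters' processing notes name STAR 2.5.2, RSEM 1.3.0, DESeq2 1.10.1 and build GRCm38; the annotation release and strand setting are not given in the sources used here. RSEM divides reads shared by similar genes by an estimate, so counts of paralogs and overlapping genes are uncertain. Libraries were prepared from about equal numbers of cells with the KAPA mRNA HyperPrep kit, per the labels' protocols.

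Symbols, positions and exon lengths came from GENCODE M21 (GRCm38), which held 54809 of the 54838 identifiers. Counts were tested with edgeR 4.0.16 in R 4.3.3 (glmQLFit, glmQLFTest, TMM scaling, filterByExpr with a minimum count of 10 and total of 15). The 9 libraries were fitted together by group, and p-values were adjusted by Benjamini-Hochberg over 13153 genes with a threshold of 0.05. SE is the standard error, taken as the size of the log2 fold change over the root of F. CPM per kb divides by the union of annotated exons. Code was tested on simulated data. No library duplicated another (chi-square per gene of at least 5 in every pair).

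The members and lists were chosen with earlier results of these data known. The genes named are all members, Zdhhc20, Anxa2, Myh9, Cacybp and Ager, genes beside the cluster called with a log2 fold change of at least 1 between unedited clone and parental line, up to 3 called genes of each list most different between unedited clone and parental line, and the 5 most like S100a4. Fgf1, Krt7, Krt19, the other genes beside the cluster and the S100 genes with few counts were named outside that rule, after their values were seen. Scaling by DESeq2 1.42.0 size factors or by total counts, an absent filter or one at 5 CPM on average, the tests of DESeq2 and of limma 3.58.1 voom, a replicate block, fits of 2 groups alone, omission of each library and other gene lengths were tried as alternatives. A planned comparison of member proteins was not analysed here.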

Additional observations from a re-analysis of the deposited data

How the results depend on the processing

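Of 152 member values per comparison over 17 alternatives, 151 kept their direction and side of the threshold for knockout against unedited clone, 142 for knockout clone against parental line and 129 for unedited clone against parental line. No called value changed sign. Uncalled values between unedited clone and parental line that did, with their range over libraries left out, were those of S100a4 (-0.47 to 0.13, above 0 without control replicate 2), Anxa2 (-0.21 to 0.051, likewise), S100a16 (-0.16, without control replicate 3, to 0.40), S100a3 (-0.16 and -0.09, without parental replicate 3 and control replicate 1, to 0.33) and S100a1 (-0.038, -0.016 and -0.0023, without control replicate 3 and parental replicates 1 and 2, to 0.26). The 2 members called there became 1 with DESeq2 size factors, total counts, a mean of at least 5 CPM, the replicate block or only the 2 groups compared. Fitting only those groups gave 1525 genes and 5 partner list genes there, against 2814 and 11, and 6840 and 35 for knockout clone against parental line, against 4131 and 20. With 1 library left out, unedited clone against parental line had 1472 (without parental replicate 1) to 4102 genes (without control replicate 3), 0 (without parental replicates 1 or 2) to 3 members (without control replicate 2) and 5 (without parental replicates 1 or 2) to 18 partner list genes (without control replicate 2; 17 without control replicate 3). It had 1537 and 1792 genes without parental replicates 2 and 3. Knockout clone against parental line had 2515 (without parental replicate 3) to 5693 genes (2626 without knockout replicate 1) and 13 (without knockout replicate 1) to 32 partner list genes (without control replicate 2). The call of S100a1 there was lost without knockout replicates 1 (-0.63) or 3 (-0.64) or parental replicate 3 (-0.48). The cause was not tested. With the longest transcript as length, parental CPM per kb was 1.16 for S100a3, 262 for S100a4, 3512 for S100a6, 640 for S100a10 and 90.5 for S100a16. Deviations of same-numbered libraries from their group means had correlations from -0.222 to 0.346, and 4 of 9 libraries were most like their own number. The replicate number was therefore not taken as a pairing, although 3 libraries per group cannot exclude one. With the replicate block S100a13 was at 0.61 (adjusted p 0.0666), and 8 and 6 members were called in the knockout comparisons. Depth limits S100a3, S100a14 in the knockout clone, S100b and Ager.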
